A study of Mus musculus with 12 samples.

Results

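The cytosolic heat shock chaperones examined here are 10 genes: the transcription factor gene Hsf1, the HSP70 genes Hspa1a, Hspa1b and Hspa8, the HSP110 gene Hsph1, the HSP90 genes Hsp90aa1 and Hsp90ab1, the small heat shock protein gene Hspb1, and the cochaperone genes Dnajb1 and Bag3. They are 10 of the 20959 genes named on the arrays. Every array probe whose transcript accession maps to one of these symbols was taken, whatever its signal. This gave 16 probes for all 10 genes on one array design and 12 probes for 9 genes on the other, which held no probe matched to Hspa1b. Only 3 probes were on both designs, and all 28 pairs of probe and comparison passed the filter on dim probes. The probes of a gene share its transcript and are not replicates.

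The series profiled J1 cells, a pluripotent line of mouse embryonic stem cells, to find genes regulated by vitamin C and by retinoic acid. Vitamin C (VC) at 50 µg was set against 1 µL of water (ddH2O), and retinoic acid (RA) at 1 µM, a signal that drives these cells to differentiate, was set against 1 µL of its solvent DMSO. All 4 groups held 3 samples, collected after 24 h. In all of them the cells were adapted to gelatin and grown in Knockout DMEM with serum replacement and 1000 U/mL of LIF, the cytokine that holds them in self-renewal. Whether a group's 3 samples were separate cultures is not stated in the labels, so the p-values cover only the variation among them, and that may be technical.

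Cytosolic chaperones bind unfolded proteins and help them fold, hold or leave for degradation. HSF1, kept inactive by chaperones in unstressed cells, binds inverted repeats of the letters GAA in promoters when unfolded proteins build up, and switches on HSP70, HSP40, small heat shock protein and HSP90 genes. Hspa8 and Hsp90ab1 are the constitutive forms, made in nearly every cell, while Hspa1a and Hspa1b are the stress-inducible HSP70 genes.

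Hspa1a and Hspa1b lie next to each other on the minus strand, at chr17:34969359-34972156 and chr17:34956429-34959238 in GRCm38.p6, and encode nearly the same protein. Of the 250 bases before their transcription starts, 247 are identical. Hspb1 lies at chr5:135887919-135889563. The arrays measured transcripts, not promoter binding, and the promoters of Hspa1a and Hspb1 are shown because those genes carry the main differences below. Both stretches run from base -150 to base -31 before the RefSeq start in GRCm38.p6, and capitals mark the fixed letters of GAANNTTC, the inverted repeat in which HSF1 binding units meet. They are chr17:34972187-34972306 on the minus strand and chr5:135887769-135887888 on the plus strand.
Hspa1a: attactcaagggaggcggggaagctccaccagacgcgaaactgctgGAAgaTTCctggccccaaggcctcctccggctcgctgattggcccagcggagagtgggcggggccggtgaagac
Hspb1: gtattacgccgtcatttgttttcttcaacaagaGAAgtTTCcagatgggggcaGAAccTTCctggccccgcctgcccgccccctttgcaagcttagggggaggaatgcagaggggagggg

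The Hspa1a stretch holds 1 match, at -104 to -97, and Hspa1b has the same 120 bases with the match at the same place. Hspb1 holds 2 matches, at -117 to -110 and at -97 to -90. A window in the RefSeq promoter table was found for 6 of the 10 genes, and GAANNTTC or TTCNNGAA, each its own reverse complement, was present in 4 of these: Hspa1a, Hspa1b, Hspb1 and Hsph1. The Hsph1 match, at chr5:149636357-149636374 on the minus strand with 5 flanking bases on each side, was of the TTCNNGAA form.
Hsph1: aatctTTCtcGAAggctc

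Dnajb1 and Bag3 held no such match within 250 bases, which says only that these letters are not in that window. Across 32851 promoter windows of the same length, 12.8% held at least 1 match and 1.46% held at least 2. The longer form with a further inverted unit, again after NN, was found in 0 of the 6 genes and in 0.466% of all windows. No matches within a window overlapped. Hsf1, Hspa8, Hsp90aa1 and Hsp90ab1 were not searched.

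On the arrays, 67.0% to 70.3% of probes in VC and ddH2O and 60.9% to 65.6% in RA and DMSO were well above background. No spot was saturated. Arrays of the same group correlated at r of 0.993 to 0.996 in VC and ddH2O, against 0.991 to 0.994 between these groups, and at 0.989 to 0.997 in RA and DMSO, against 0.911 to 0.919 between them. The 3 RA arrays were all on 1 slide and the 3 DMSO arrays on another, so slide and treatment cannot be told apart there. VC replicates 1 and 2 and ddH2O replicates 2 and 3 shared a slide, while VC replicate 3 and ddH2O replicate 1 were each on a slide of their own. Each of 7 embryonic stem cell markers with a probe on the VC design and of 8 on the RA design was well above background on at least 1 array.

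In VC against ddH2O, the inducible HSP70 gene Hspa1a was lower and Hspb1 was higher. Both Hspa1a probes fell by about 1.5-fold, and the Hspb1 probe rose 1.25-fold. Of 2 Hspa1b probes, the one above background on all 6 arrays was not called, and the other was called lower but passed the filter through its ddH2O arrays. The probes of Hsf1, Hspa8, Hsph1, Hsp90aa1, Hsp90ab1, Dnajb1 and Bag3 did not pass the test. Thus 4 of 16 probes were called at a limma adjusted p under 0.05, against 8.28% of all 28160 probes tested. By direction, 1 of the 16 rose and 3 fell, where 2.97% of all probes rose and 5.32% fell. The 3 falling probes belong to the neighbouring gene pair that encodes nearly the same protein, and the count includes the Hspa1b probe that was above background on 1 of 3 VC arrays.

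Levels below are log2 signals relative to the 75th percentile of the same array, so a value of 0 lies at that percentile. Signals of different probes cannot be set against each other. Probe A_52_P82741 of Hspa1a read -0.36, -0.14 and -0.25 in the 3 VC samples, against 0.42, 0.42 and 0.32 in the 3 ddH2O samples. Every VC sample was below every ddH2O sample. The difference was -0.63 with a standard error of 0.076 (limma adjusted p = 0.0162), larger in size than at 96.9% of tested probes. Probe A_51_P117952 of the same gene read -0.56, -0.29 and -0.41 in VC and 0.21, 0.17 and 0.21 in ddH2O. The groups again did not overlap, with VC replicate 1 the lowest at both probes. Here the difference was -0.62 ± 0.081 (SE, limma adjusted p = 0.0179).

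Hspa1b had 2 probes. Probe A_52_P304902 read -5.89, -5.89 and -5.66 in VC, against -5.36, -5.37 and -5.09 in ddH2O. It was well above background on 1 of 3 VC arrays and on all 3 ddH2O arrays, and its difference was -0.54 ± 0.11 (SE, limma adjusted p = 0.0396). Probe A_52_P52803 read -3.05, -2.43 and -2.33 in VC, against -2.03, -1.92 and -1.99 in ddH2O. Its groups did not overlap, but VC replicate 1 stood well below the other VC samples. The difference of -0.63 ± 0.19 (SE) missed the threshold (limma adjusted p = 0.0903), and it was -0.40 without VC replicate 1. Whether a probe of one gene of the pair also picks up the other's transcript was not tested, since no probe sequences were used here.

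Hspb1 encodes HSP25, the mouse counterpart of human HSP27, which holds unfolded proteins without using ATP. Its probe A_52_P404533 read 6.71, 6.67 and 6.72 in VC, against 6.44, 6.33 and 6.36 in ddH2O. The VC samples had an SD of 0.024 and all lay above the ddH2O samples. The difference was 0.32 ± 0.059 (SE, limma adjusted p = 0.0312), a 1.25-fold rise.

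Within the slide that VC and ddH2O shared, the differences were -0.62 and -0.61 at the Hspa1a probes, -0.66 (A_52_P304902) and -0.79 (A_52_P52803) at the Hspa1b probes, and 0.35 at Hspb1. Between the arrays on separate slides they were -0.66 and -0.62 for Hspa1a, -0.29 and -0.30 for Hspa1b, and 0.28 for Hspb1. The groups did not overlap at any of these 5 probes, so the sign had to be the same in both parts and says nothing about slide. The part on separate slides was 1 VC array against 1 ddH2O array. The Hspa1b differences were smaller there. The calls themselves were fragile: with slide as a fixed block, without any filter on dim probes, or without VC replicate 1, ddH2O replicate 1 or ddH2O replicate 2, none of the 16 probes was called by limma, although 7 kept an unadjusted p under 0.05 with the slide block. The Hspa1a probes were called in 13 of 19 and 11 of 18 alternatives, and the second also lost its call without ddH2O replicate 3. Hspb1 was called in 7 of 19, and it missed the threshold at 0.26 with quantile normalization, at 0.27 with the authors' series values and at 0.35 with normexp. Hspa1b probe A_52_P304902 was called in 2 of 17, and its difference was -0.14 with normexp. Leaving out any 1 of the 6 arrays ended the Hspb1 and Hspa1b calls.

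**Figure D1:**
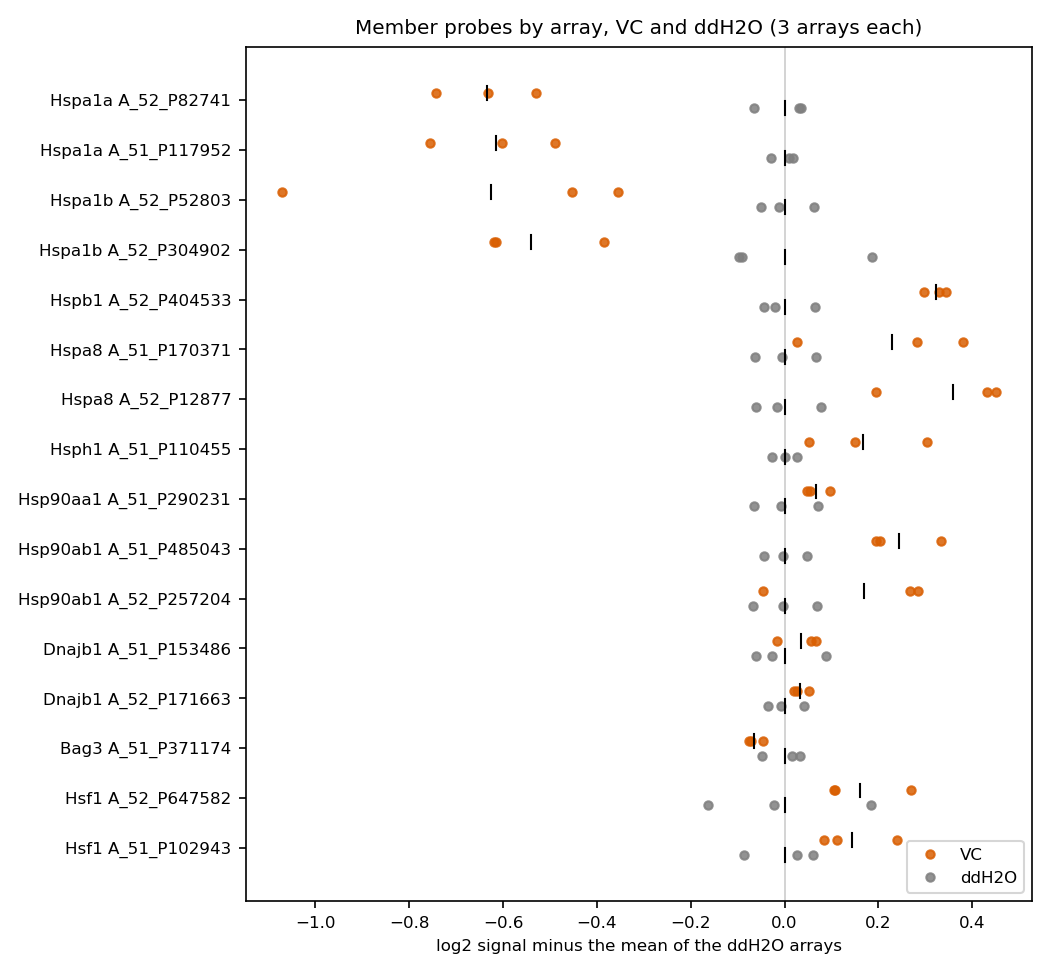
Each line is a probe, each orange point a VC array and each grey point a ddH2O array (3 of each); the horizontal axis is log2 signal minus the mean of the ddH2O arrays, and black ticks are group means. The VC points of all 4 Hspa1a and Hspa1b probes lie left of every ddH2O point, and the Hspb1 points lie right of them, while most other probes overlap or differ by at most 0.36.

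The constitutive chaperones gave small positive differences that did not pass the test. Hspa8, the housekeeping HSP70, had 0.23 at probe A_51_P170371 (95% interval -0.02 to 0.48) and 0.36 at probe A_52_P12877 (0.14 to 0.58; limma adjusted p = 0.061). At the second of these the samples read 5.79, 5.55 and 5.81 in VC and 5.34, 5.29 and 5.43 in ddH2O, with no overlap. Hsp90ab1, the constitutive HSP90, had 0.24 at probe A_51_P485043 (0.08 to 0.40; limma adjusted p = 0.0729) and 0.17 at probe A_52_P257204 (-0.08 to 0.42). Without overlap at the first of these, VC read 7.11, 7.10 and 7.24 and ddH2O 6.96, 6.91 and 6.86. With spike-in scaling both non-overlapping probes were called, at 0.42 for Hspa8 and 0.31 for Hsp90ab1. Over all alternatives the Hspa8 probe was called in only 4 of 18 and the Hsp90ab1 probe in only 3 of 19.

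Hsp90aa1, the inducible HSP90, had a difference of 0.07 (95% interval -0.08 to 0.22). Its VC samples overlapped those of ddH2O. Hsph1, which exchanges nucleotide on HSP70, had 0.17 (-0.02 to 0.36), with VC at 3.34, 3.24 and 3.49 and ddH2O at 3.21, 3.19 and 3.16. Dnajb1, the HSP40 that delivers substrates to HSP70, had 0.04 (-0.13 to 0.20) at probe A_51_P153486 and 0.03 (-0.10 to 0.17) at probe A_52_P171663. Bag3, a nucleotide exchange factor that links HSP70 to small heat shock proteins and autophagy, had -0.06 (-0.20 to 0.07).

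Hsf1 itself, the factor above these genes, was measured by 2 probes that gave 0.16 (95% interval -0.09 to 0.41) at A_52_P647582 and 0.14 (-0.03 to 0.32) at A_51_P102943. The VC samples at the first probe read 2.10, 2.10 and 2.26 and overlapped the ddH2O samples at 1.83, 1.97 and 2.18. Neither probe passed the test, and transcript level does not report HSF1 activity. Across the 16 probes, 5 had all VC arrays above all ddH2O arrays and 4 had all below. Over all probes 36.6% had groups that did not overlap, 18.4% with VC higher and 18.2% with VC lower. The median difference over the 16 was 0.11, beside 0.0087 over all probes.

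In bulk RNA, fewer cells of a type and less RNA per cell cannot be told apart. In VC the summed level of 8 fibroblast markers, of which Lum and Fap were above background on no array, was 2.90 to 3.03, against 3.74 to 4.07 in ddH2O (units of each array's 75th percentile). Of the 6 tested only Thy1 was called, lower at -0.61 (limma adjusted p = 0.0175), and the 6 differences ran from -0.67 to 0.28. Such sums weigh the brightest genes most, and Thy1 alone averaged 0.52 in VC and 1.13 in ddH2O on the log2 scale. The summed level of 6 blood and endothelium markers, of which Cdh5 and Ptprc were above background on no array, was 0.883 to 0.950 in VC and 1.25 to 1.31 in ddH2O. Of the 4 tested only Cd34 was called, lower at -0.99 (limma adjusted p = 0.0152), and the median difference of the 4 was -0.07. The summed level of 8 immediate early genes, which respond to handling and growth factors, was 15.0 to 15.8 in VC and 16.8 to 17.0 in ddH2O, and 2 of these fell, Egr1 at -1.16 and Atf3 at -0.57 (limma adjusted p = 0.00828 and 0.0136). Stem cell markers summed to 550 to 601 in VC and 524 to 602 in ddH2O, while 2 of 7 were called higher and 0 lower, Esrrb at 0.40 and Zfp42 at 0.37 (limma adjusted p = 0.0258 and 0.026). By the brightest probe of each gene, 3.18% of all genes were called higher in VC and 7.14% lower, beside these marker counts. The part of these levels in the chaperone differences was not tested.

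In RA against DMSO, Hspa1a rose about 9-fold while Hspb1 fell 2.91-fold and Hsp90aa1 fell 1.63-fold. Bag3 rose 1.24-fold, and the 3 Hspa8 probes were called in both directions. Hsf1, Dnajb1, Hsp90ab1 and both Hsph1 probes did not pass the test. So 7 of 12 probes were called at a limma adjusted p under 0.05, against 71.6% of all 37050 probes tested. The 3 rises and 4 falls stand beside 36% of all probes that rose and 35.5% that fell. The share of called probes is therefore no result about these genes, and the sizes and directions at single probes are what can be described. Groups did not overlap at 5 probes with RA higher and 6 with RA lower, while over all probes 77.1% did not overlap, 38.5% with RA higher and 38.6% with RA lower.

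Probe A_55_P2068459 of Hspa1a read -0.24, -0.14 and -0.75 in the 3 RA samples, against -3.57 in each of the 3 DMSO samples. The RA samples lay far above DMSO, and RA replicate 3 was the lowest of them. The difference was 3.19 ± 0.166 (SE, limma adjusted p = 1.78e-05), or 9.13-fold, larger in size than at 95.3% of tested probes. It was called in all 17 alternatives, with differences from 2.34 to 3.38. The design holds no probe matched to Hspa1b, and whether this probe picks up Hspa1b transcripts was not tested.

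Hspb1 moved the other way. Its probe A_55_P2039284 read 6.437, 6.484 and 6.438 in RA, against 7.955, 8.022 and 7.998 in DMSO. The 3 samples of each group were almost the same and the groups were far apart. The difference was -1.54 ± 0.065 (SE, limma adjusted p = 7.88e-06), called in all 17 alternatives at -2.02 to -1.14.

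Hsp90aa1, whose product folds kinases and other signalling proteins, was measured by probe A_55_P2057946. It read 7.12, 7.11 and 7.20 in RA, against 7.78, 7.91 and 7.86 in DMSO, with no overlap. The fall of -0.71 ± 0.073 (SE, limma adjusted p = 0.000278) was also called in all 17 alternatives, at -1.19 to -0.32. Hsp90ab1 read 8.49, 8.38 and 8.60 in RA and 8.64, 8.71 and 8.67 in DMSO. Its groups did not overlap, but the difference of -0.18 (95% interval -0.38 to 0.02) missed the threshold (limma adjusted p = 0.0859).

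**Figure D2:**
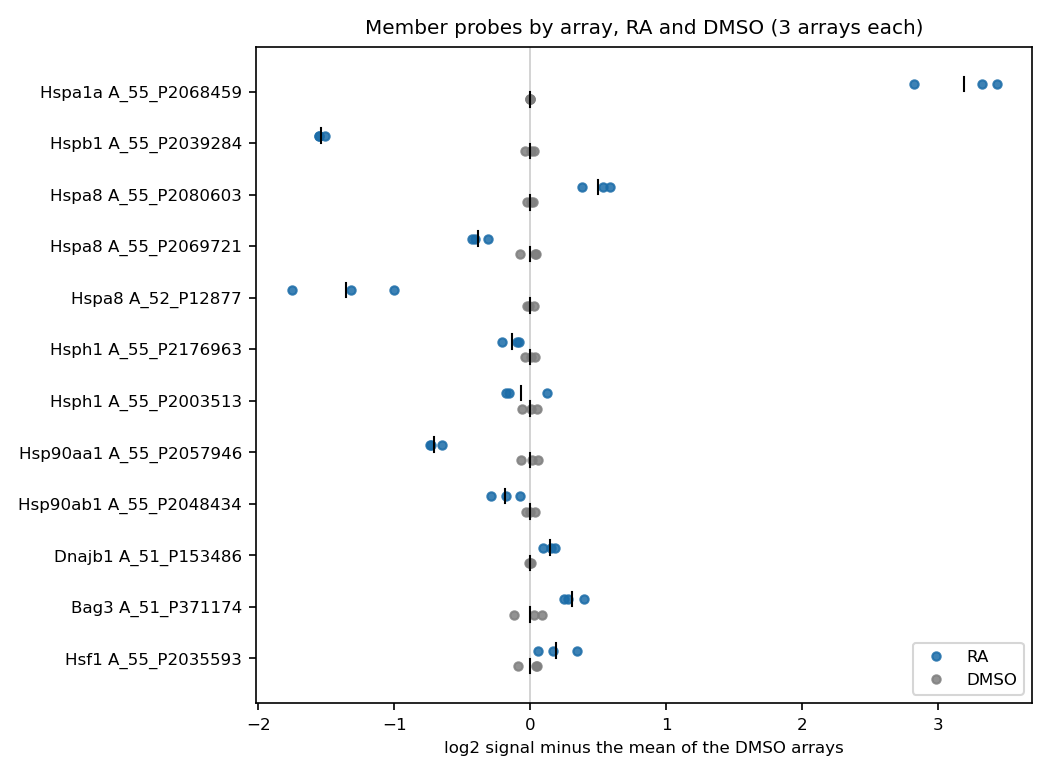
Each line is a probe, each blue point an RA array and each grey point a DMSO array (3 of each); the horizontal axis is log2 signal minus the mean of the DMSO arrays, and black ticks are group means. The Hspa1a points lie about 3 log2 units right of DMSO, the Hspb1 points about 1.5 left, and the 3 Hspa8 probes lie on both sides.

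The 3 Hspa8 probes disagreed. Probe A_55_P2080603 read 8.99, 8.83 and 9.03 in RA, against 8.42, 8.47 and 8.45 in DMSO, a rise of 0.50 ± 0.08 (SE, limma adjusted p = 0.00191). Probe A_55_P2069721 read 7.72, 7.63 and 7.60 in RA, against 7.95, 8.07 and 8.06 in DMSO, a fall of -0.38 ± 0.07 (SE, limma adjusted p = 0.00435). Probe A_52_P12877 read 4.48, 4.79 and 4.04 in RA, against 5.79, 5.77 and 5.83 in DMSO, a fall of -1.36 ± 0.19 (SE, limma adjusted p = 0.001). None of the 3 had overlapping groups, so no direction can be given for the gene. Only the last kept its call in every alternative that gave it a value, at -1.84 to -1.01. The rise at A_55_P2080603 was 0.16 after median scaling and 0.02 after spike-in scaling, and the fall at A_55_P2069721 was -0.01 with quantile normalization and -0.02 with the authors' series values, none of them called.

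Bag3 read 2.39, 2.53 and 2.41 in RA, against 2.22, 2.02 and 2.16 in DMSO. The groups did not overlap and the difference was 0.31 ± 0.09 (SE, limma adjusted p = 0.0191). Its sign turned with the scaling, to -0.03 when arrays were centred on their median and to -0.18 with spike-in scaling, both not called. Without DMSO replicate 2 or 3 the rise was 0.25 or 0.32 and was no longer called.

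The remaining probes did not pass the test. Dnajb1 differed by 0.14 (95% interval -0.02 to 0.30), with RA at 4.69, 4.72 and 4.63 and DMSO at 4.54, 4.55 and 4.53. The Hsf1 probe A_55_P2035593 differed by 0.19 (-0.05 to 0.43), with RA at 1.83, 1.66 and 1.54 and DMSO at 1.54, 1.39 and 1.52. Both turned negative, uncalled, with median and spike-in scaling, and both were called with quantile normalization, Dnajb1 at 0.48 and Hsf1 at 0.31. Hsph1 differed by -0.13 (-0.31 to 0.04) at probe A_55_P2176963 and by -0.07 (-0.32 to 0.19) at probe A_55_P2003513, and both turned positive, uncalled, with quantile normalization and the authors' series values. With median scaling both Hsph1 probes, at -0.47 and -0.41, and Hsp90ab1, at -0.52, were called lower.

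The median difference over all tested probes was 0.03 with the 75th percentile, -0.31 after median scaling and -0.46 after spike-in scaling. Rises made up 50.35% of all RA calls with the 75th percentile, 33.96% after median scaling, 27.13% after spike-in scaling and 63.62% with normexp. In VC the same share was 35.83% with the 75th percentile, 56.38% after median scaling, 61.75% after spike-in scaling and 47.34% with an intensity trend. Relative to the median of all probes in each alternative, the RA difference lay between 2.05 and 3.37 for Hspa1a, at or below -1.10 for Hspb1 and between -1.09 and -0.27 for Hsp90aa1. The same range ran from -0.09 to 0.55 for Bag3.

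**Figure D3:**
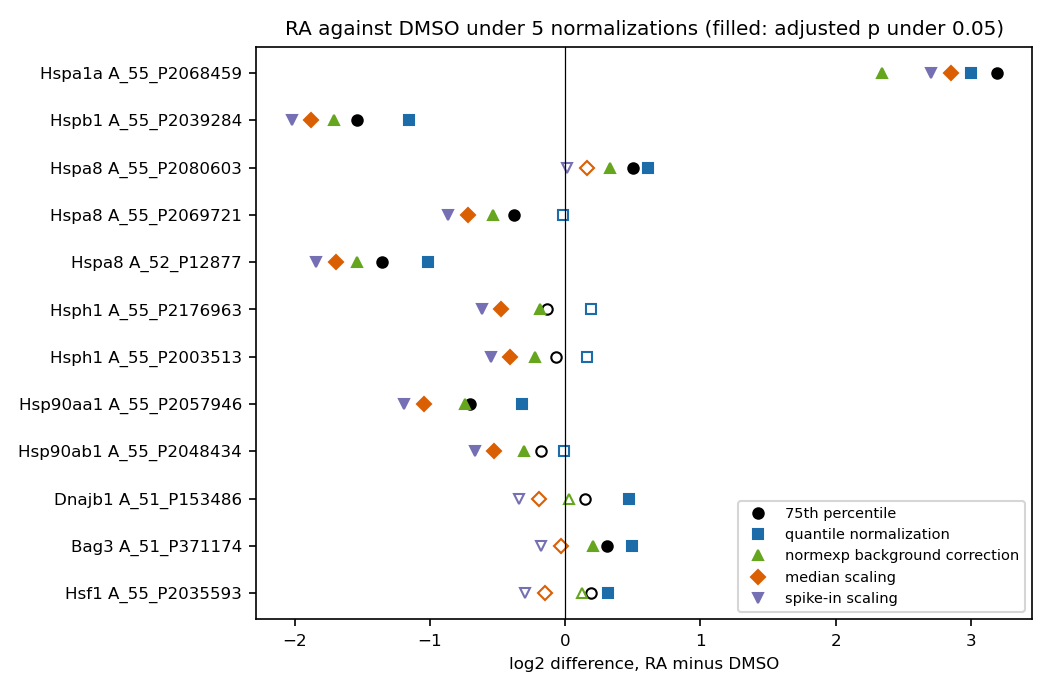
The RA minus DMSO log2 difference of each of the 12 probes under 5 normalizations, with filled marks for a limma adjusted p under 0.05. The Hspa1a marks all lie above 2 and the Hspb1 and Hsp90aa1 marks all lie below 0, while the Bag3, Dnajb1 and Hsf1 marks cross 0 with median and spike-in scaling and the Hsph1 marks with quantile normalization.

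Hspa1a and Hspb1 were thus called in both comparisons, each time in opposite directions to each other: Hspa1a was lower and Hspb1 higher in VC, and Hspa1a was higher and Hspb1 lower in RA. Different probes measured them on the 2 designs, so the sizes are not set against each other. The VC calls held in 13 of 19 and 11 of 18 alternatives at the Hspa1a probes and in only 7 of 19 at Hspb1. The RA calls of both genes held in all 17. The 3 probes on both designs were A_52_P12877 of Hspa8, with differences of 0.36 in VC and -1.36 in RA, A_51_P371174 of Bag3, with -0.06 and 0.31, and A_51_P153486 of Dnajb1, with 0.04 and 0.14. The comparisons share no samples, and the difference between them was not tested.

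**Figure D4:**
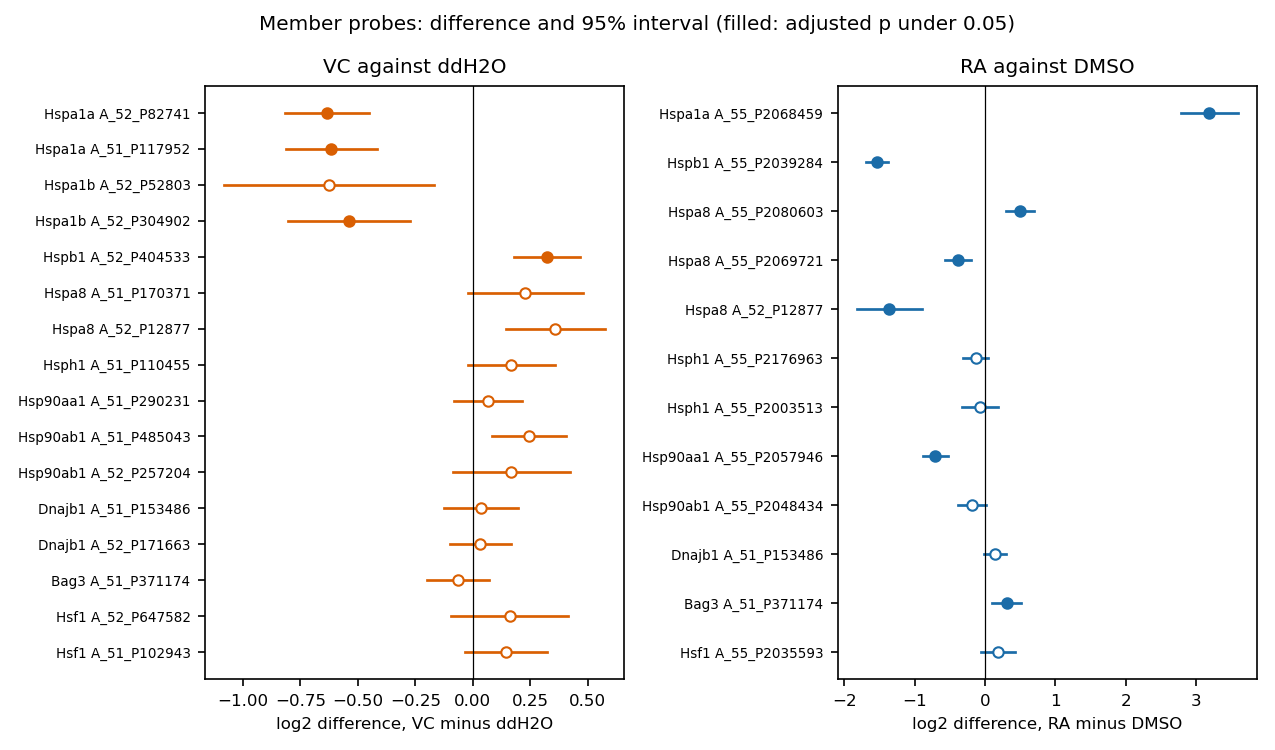
Log2 difference and 95% interval of each probe, VC minus ddH2O on the left and RA minus DMSO on the right, with filled circles for a limma adjusted p under 0.05. The 2 panels have different scales: the VC differences lie between -0.63 and 0.36 and the RA differences between -1.54 and 3.19.

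Marker levels of other cell types and of stem cells also differed in RA. Stem cell markers, of which 7 of 8 fell and Nanog rose, summed to 83.0 to 93.6 in RA, against 536 to 554 in DMSO, and fibroblast markers to 38.0 to 40.8 in RA, against 2.06 to 2.22 in DMSO. Of 6 fibroblast markers tested 5 rose, with Lum and Fap above background on no array, and Col1a2 rose by 6.10 on the log2 scale (limma adjusted p = 3.48e-07). Thy1 went the other way and was called lower, at -1.48 (limma adjusted p = 2.67e-05). The fibroblast sum in RA was mostly 1 gene, as Col1a2 read 5.07, 5.09 and 5.16 on the log2 scale in the RA samples. Blood and endothelium markers summed to 0.700 to 0.778 in RA and 0.881 to 0.939 in DMSO, with Cdh5 and Hbb-bt above background on no array. Of the 4 tested, Ptprc at 2.11 and Cd34 at 0.50 were called higher and Pecam1 at -1.51 lower (limma adjusted p = 0.00039, 0.00874 and 1.06e-05). The immediate early genes summed to 21.7 to 25.7 in RA and 6.58 to 6.71 in DMSO, and of the 8, 3 rose and 2 fell, with a median of 0.21. Atf3 rose by 3.78 and Jun by 3.50, while Ier2 stood at -0.95 and Dusp1 at -0.45 (limma adjusted p = 3.7e-06, 3.31e-06, 0.00117 and 0.00722). By the brightest probe of each gene, 34.8% of all genes were called higher in RA and 40.8% lower, beside these marker counts. The part of the marker levels in the chaperone differences was not tested.

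The partners of these chaperones were followed with 1 probe per gene, the brightest, for which 10.3% of 14531 genes were called in VC, 3.18% higher and 7.14% lower, and 75.6% of 16017 in RA, 34.8% higher and 40.8% lower. The VC counts by list come first, and no list was tested against these shares. Of 19 partners of HSP70, 1 rose and 3 fell, with a median difference of 0.03 beside -0.00059 over all genes. Hspa4, an HSP110 family exchange factor, rose by 0.26 (limma adjusted p = 0.043), while the HSP40 gene Dnaja4 fell by 0.38 and the testis-rich HSP70 gene Hspa2 fell by 0.33 (limma adjusted p = 0.0306 and 0.0288). None of 13 HSP90 partners, 8 subunits of the CCT chaperonin, which folds actin and tubulin, or 6 mitochondrial chaperones was called, with medians of 0.06, 0.09 and 0.09. Of 8 other small heat shock proteins only Hspb3 rose, by 0.70 (limma adjusted p = 0.0346) and by 0.19, uncalled, with normexp. Of 5 other heat shock factor and binding protein genes only Hsf5 fell, by 0.47 (limma adjusted p = 0.0219). The Hspa4 call was lost with quantile normalization and the authors' series values, and with normexp none of the 19 HSP70 partners, 8 small heat shock proteins or 5 factor and binding protein genes was called.

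In RA the HSP90 partners, the CCT chaperonin and the mitochondrial chaperones were lower in most members. All 8 CCT genes fell, with a median difference of -0.74 beside -0.07 over all genes, and 6 of the 8 fell with quantile normalization or the authors' series values. The CCT median was -0.40 with quantile normalization and -1.23 with spike-in scaling. The largest were Cct6a at -1.23 and Cct4 at -1.06 (limma adjusted p = 0.000509 and 0.000336). All 6 mitochondrial chaperones fell, with a median of -0.79, among them the mitochondrial HSP70 gene Hspa9 at -1.50 and the mitochondrial HSP90 gene Trap1 at -1.31 (limma adjusted p = 0.00018 and 3.68e-05). Their median was -0.49 with quantile normalization and -1.27 with spike-in scaling. Of 14 HSP90 partners, 10 fell and 1 rose, with a median of -0.54. With quantile normalization 9 fell and 2 rose, with a median of -0.30, and with spike-in scaling 13 fell and 0 rose, with a median of -1.02. Sugt1 and the steroid receptor immunophilin Fkbp5 fell by 1.62 each (limma adjusted p = 1.18e-05 and 2.59e-05). The single rise, the myosin chaperone gene Unc45a at 0.39 (limma adjusted p = 0.00311), was -0.09 and uncalled with spike-in scaling.

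Partners of HSP70 and small heat shock proteins were called in both directions in RA. So were genes at large, 34.8% higher and 40.8% lower. Of 19 HSP70 partners 5 rose and 9 fell, with a median of -0.14 that became 0.11 with quantile normalization. Dnaja4 rose by 2.78 and Bag2, whose product inhibits the ubiquitin ligase CHIP, by 1.52, while Dnajb6, which holds back protein aggregation, fell by 1.60 and Dnajc7 fell by 1.38 (limma adjusted p = 1.27e-05, 6.89e-05, 7.1e-06 and 0.000233). Of 7 other small heat shock proteins 4 rose and 1 fell, with a median of 0.76, and 3 rose and 3 fell with spike-in scaling, with a median of 0.28. Cryab, the lens and muscle protein alpha B-crystallin, rose by 3.14 and its neighbour in the genome Hspb2 by 1.49, while Hspb8, the partner of BAG3, fell by 0.88 (limma adjusted p = 9.8e-06, 0.000305 and 0.00346). Of 5 other heat shock factor and binding protein genes 2 fell, Hsf2 at -0.73 and Hsf2bp, whose product binds HSF2, at -2.18 (limma adjusted p = 0.0009 and 0.000178). With normexp 2 of the 5 rose and 2 fell, with Hsf2bp at -1.29, and with median or spike-in scaling 3 fell. Hspb1 thus fell in RA, as did Hspb8, while 4 of the 7 other small heat shock protein genes tested rose.

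**Figure D5:**
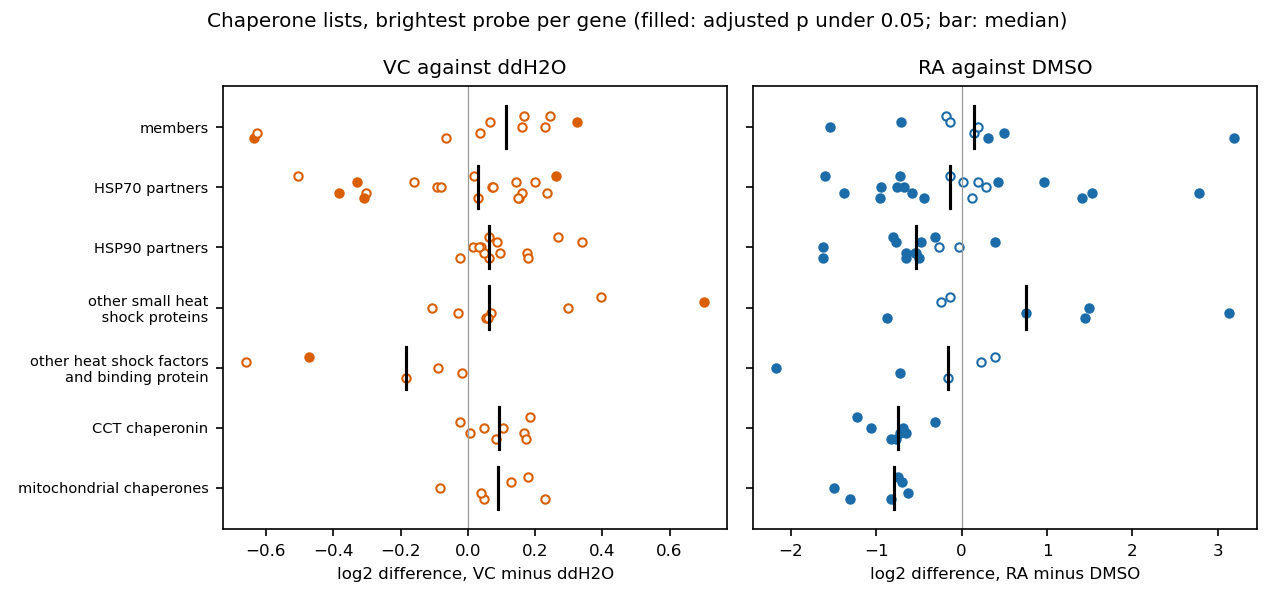
Log2 difference of each gene (brightest probe) in the chaperone lists, VC minus ddH2O on the left and RA minus DMSO on the right, with filled circles for a limma adjusted p under 0.05 and black bars for medians. In RA the CCT and mitochondrial genes all lie below 0 while the small heat shock proteins and HSP70 partners spread to both sides, and in VC the list medians lie between -0.18 and 0.11; the HSP70 partner median in RA turns positive with quantile normalization.

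Likeness of pattern was measured as the root mean square difference between centred log2 values over the 6 arrays of a design. To Hspa1b probe A_52_P52803, the nearest of 14521 genes in VC and ddH2O were Nin, Phf6, Tlx1, Slc35f1 and Ggnbp1, at 0.065, 0.080, 0.082, 0.091 and 0.106 log2 units. That Hspa1b probe was not called, and its VC replicate 1 stood low. Nin, Phf6 and Ggnbp1 were not called either (limma adjusted p = 0.0888, 0.0638 and 0.156). Genes picked as nearest from so many over 6 arrays are close by selection. To the Hspa1a probe in RA and DMSO, the nearest of 16008 genes were Arsk, Fzd8, Mest, Ccn1 and Stbd1, at 0.098, 0.099, 0.110, 0.115 and 0.116.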

How the data were processed

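Total RNA of 12 samples was labelled with Cy3 and hybridised to 2 Agilent array designs. The authors deposited scanner files with a processed intensity for each spot, from which Agilent Feature Extraction 10.7.3.1 had taken background and spatial trend, per the file headers. The log2 values of the deposited series tables, used as an alternative, had a column median of 5.96 or 5.18; their normalization was not given in the sources used.

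From the scanner files, log2 of the processed intensity minus the array's 75th percentile was taken and the unflagged spots of a probe were averaged. Accessions were named through RefSeq GRCm38.p6, which matched 27479 of 41174 and 27235 of 55681 probes. Probes well above background on at least 3 of 6 arrays were tested with limma 3.58.1 (R 4.3.3; lmFit, eBayes), each design apart, with Benjamini-Hochberg adjustment over all of them and a threshold of 0.05. The number of arrays limits the precision. Intervals are 95% from the same fit.

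Named are all member probes, up to 2 rises and 2 falls per list, and the 5 genes of nearest pattern. The members and lists were chosen with earlier results of these data known. Alternatives changed the scaling, background correction (normexp, offset 50, on the median signal), filter, variance model, blocks and samples. The fit was tested on simulated data. Figures used Python 3.11.15 and matplotlib 3.10.9. Probe sequences and protein sequences were not used here.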

Additional observations from a re-analysis of the deposited data

How the results depend on the processing

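Of the 16 chaperone probes in VC, 4 were called by limma, against 2 with quantile normalization, 2 with the authors' series values, 2 with normexp, 0 without a filter on dim probes (7 at an unadjusted p under 0.05) and 0 with slide as a fixed block (7 unadjusted). Leaving out 1 array gave 0 to 3. Over all probes in VC, 2333 were called, against 543 with normexp, 4259 with an intensity trend and robust fit, 0 without a filter (7617 unadjusted), 0 with the slide block (6067 unadjusted) and 0 to 1038 with 1 array left out. That count was 0 without VC replicate 1, ddH2O replicate 1 or ddH2O replicate 2, 1038 without VC replicate 2, 666 without VC replicate 3 and 385 without ddH2O replicate 3. In RA the 7 called chaperone probes became 5 to 10, and all 26524 called probes became 12489 with 1 probe per gene, where fewer probes were tested. Among the probes of the 10 genes, the only called value whose sign turned was Bag3 in RA, -0.034 with median and -0.18 with spike-in scaling. The causes were not tested.

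Deviations of same-numbered samples showed no clear link. They correlated at -0.07, 0.05 and -0.02 in VC and ddH2O and at -0.03, 0.02 and -0.04 in RA and DMSO. Whether the samples were prepared in pairs cannot be read from this. With the replicate block, 0 of the 16 chaperone probes (7 unadjusted) and 0 of all probes (7644 unadjusted) were called in VC. In RA, 6 of the 12 and 25052 of all probes were called with the block, and Bag3 at 0.31 lost its call (limma adjusted p = 0.068).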
